A study of Mus musculus with 6 samples.

Results

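The genes described here encode Polycomb repressive complex 2 (PRC2) and the proteins that join it, together with every transcript listed for them, in 2H11 cells kept without or with BMP4. The 10 genes, of 11754 in the gene table, were chosen by name: Ezh1, Ezh2, Eed, Suz12, Rbbp4, Aebp2, Jarid2, Mtf2, Phf1 and Phf19. Their transcripts were 28 of the 22148 in the transcript table, of which 6 belonged to Aebp2. Aebp2 was selected on the difference between the groups in its own transcripts, so its values are given as a description, with no test, and it is left out of every count of tested members.

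2H11, an established line of mouse cells from the C3H/HeJ strain, is called endothelial in the sample titles, with axillary lymph node and vascular epithelium named as its source. Cells were starved in both groups and then kept for 48 h untreated (3 samples) or with BMP4 (3 samples), a secreted ligand of the bone morphogenetic protein family whose dose the labels do not state. Polyadenylated RNA was sequenced from strand-specific libraries, and the deposited values are FPKM (fragments per kilobase of the gene or transcript, relative to library size), a scale on which levels are set per length. Nothing in the labels tells whether replicates were grown as separate cultures; the spread that each p-value rests on may therefore be technical.

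PRC2 places methyl groups on lysine 27 of histone H3 (H3K27), a mark of genes kept silent, such as developmental regulators in cells that do not use them. EZH2 or its relative EZH1 is the enzyme, EED reads the mark, SUZ12 is the scaffold that holds the subunits together, and RBBP4 binds histones. The complex occurs in alternative forms: one carries a Polycomb-like protein (PHF1, MTF2 or PHF19), the other AEBP2, a zinc finger protein, with JARID2, and the AEBP2 and JARID2 form binds ubiquitinated histone H2A. Transcripts of one gene can begin or end at different exons and so encode proteins that differ at their ends.

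The sum of gene FPKM per library was 252329 to 273562, and no steps of whole reads were found in the low values, so sequencing depth is unknown and values carry the replicate SD alone. Of 10 endothelial markers, 2 had a value (Cd34 and Flt1), with a summed level of 51.3 to 56.3 FPKM in the untreated and 25.9 to 27.1 in the BMP4 libraries; the defining markers Pecam1, Cdh5, Kdr and Tek were not analysed here. All 7 fibroblast markers had a value, and their sum was 2906 to 2972 FPKM untreated and 1458 to 1467 with BMP4. Of 7 leukocyte markers 3 had a value, with sums of 10.3 to 15.6 and 12.1 to 13.7 FPKM, and of 5 epithelial markers only Krt19 did, at 0.657 to 0.841 and 0.352 to 0.892 FPKM. The part of these marker levels in the results below was not tested.

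The 2 Aebp2 transcripts with the largest values differed in their last exon. Aebp2 lies on the plus strand of chromosome 6 (140622663 to 140678472, GRCm38), and 0 other annotated genes overlap it. Aebp2-002 and Aebp2-003 share a start codon at 140623695 and 6 complete exons. Aebp2-003 leaves a splice donor at 140650782 and ends in an exon of 1082 bases (140677391 to 140678472), which begins 24565 bases beyond the end of Aebp2-002. Aebp2-002 reads on through that donor in a last exon of 2071 bases (140650756 to 140652826), as Aebp2-001 does in a last exon of 4726 bases. The coding sequence has 496 codons in Aebp2-002 and 504 in Aebp2-003. In Aebp2-001, Aebp2-004 and Aebp2-005 it begins at a start codon further downstream, at 140633705, and has 274, 288 and 288 codons; Aebp2-008 is annotated without a complete 5′ end.

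The ends of the coding sequences are shown because Aebp2-002 and Aebp2-003, which share a start codon, differ in their coding sequence only there. The ends do not tell all the transcripts apart: Aebp2-001 and Aebp2-002 have the same end and differ in their start codon. In the sequences, 27 bases that all 6 share are in lower case. The bases that follow in each transcript, stop codon included, are in capitals. The sequences were read 5′ to 3′ from the GENCODE M21 transcripts (GRCm38, plus strand); those of Aebp2-003, Aebp2-004, Aebp2-005 and Aebp2-008 span an intron. They begin at 140650756 on chromosome 6 and end at 140650786 for Aebp2-001 and Aebp2-002, at 140677418 for Aebp2-003, at 140651361 for Aebp2-004 and Aebp2-005 and at 140653761 for Aebp2-008.
Aebp2-001 and Aebp2-002: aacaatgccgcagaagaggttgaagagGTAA
Aebp2-003: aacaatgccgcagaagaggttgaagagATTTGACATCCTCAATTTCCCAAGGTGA
Aebp2-004 and Aebp2-005: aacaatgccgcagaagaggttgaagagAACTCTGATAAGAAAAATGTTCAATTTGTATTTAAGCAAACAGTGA
Aebp2-008: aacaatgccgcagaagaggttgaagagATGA
In Aebp2-001 and Aebp2-002 the shared part is followed within the same exon by 4 bases that complete the last codon and the stop, whereas Aebp2-003 adds 28 bases and Aebp2-004 and Aebp2-005 add 46 from other exons.

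**Figure D1:**
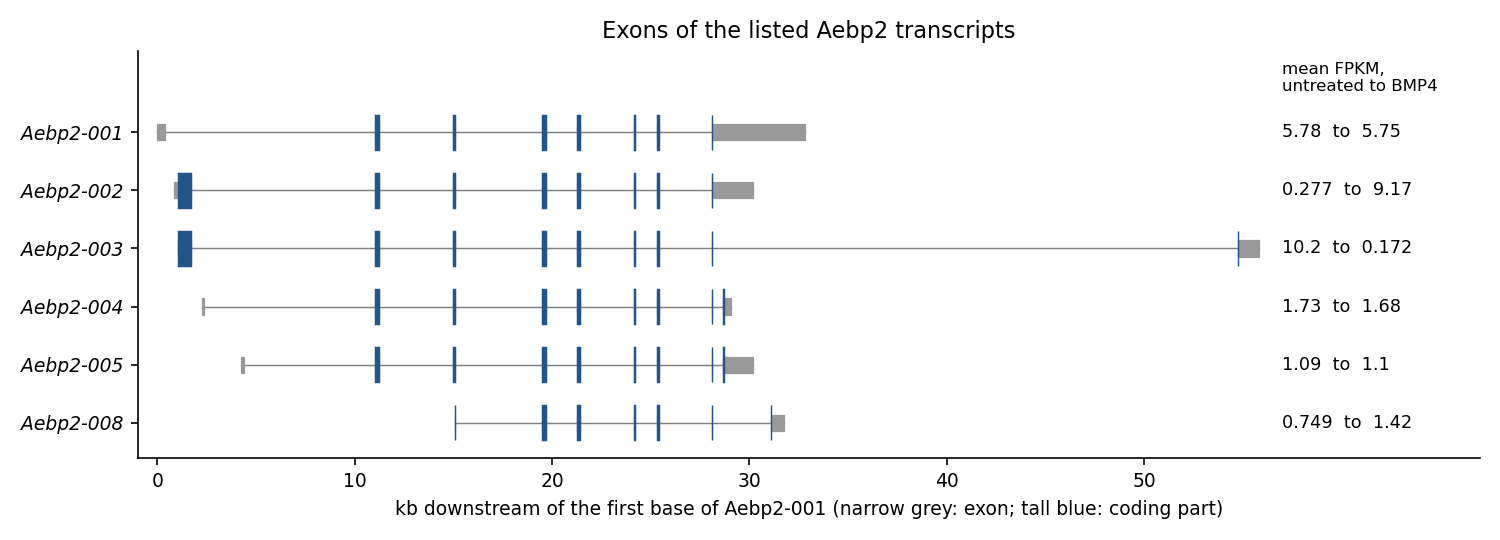
Exons of the 6 listed Aebp2 transcripts, drawn to scale in kb from the first base of Aebp2-001 (horizontal axis); narrow grey boxes are exons, tall blue boxes their coding part, and the numbers at the right are mean transcript FPKM in untreated and BMP4 libraries. Aebp2-002 and Aebp2-003 have the same large first coding exon, and the last exon of Aebp2-003 lies far to the right of all others.

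Aebp2-003 was the highest Aebp2 transcript in every untreated library and the lowest in every BMP4 library, and Aebp2-002 took the opposite course. Aebp2-003 was at 7.74, 12.5 and 10.4 FPKM in untreated replicates 1 to 3 and at 0.101, 0.213 and 0.201 FPKM in BMP4 replicates 1 to 3. Aebp2-002 was at 0.274, 0.336 and 0.221 FPKM untreated and at 9.49, 9.66 and 8.36 FPKM with BMP4. The groups were far apart for both. The mean of Aebp2-003 was 10.2 ± 2.40 FPKM untreated and 0.172 ± 0.0619 with BMP4 (SD, n = 3), 59.6-fold lower, and that of Aebp2-002 was 0.277 ± 0.0576 and 9.17 ± 0.707 FPKM, 33.1-fold higher. On the log2(FPKM + 1) scale used for testing, which understates changes of low values, these differences were -3.24 (SE 0.19) and 2.99 (SE 0.12). In these bulk libraries, fewer cells with a transcript and less of it per cell cannot be told apart.

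The sum of the pair differed much less than either transcript. Aebp2-002 and Aebp2-003 together were at 8.01, 12.9 and 10.7 FPKM untreated and 9.59, 9.88 and 8.56 FPKM with BMP4, and the groups overlapped (10.5 ± 2.43 and 9.35 ± 0.691, SD). Within that sum Aebp2-002 made up 3.42, 2.61 and 2.07% in the untreated libraries and 99.0, 97.8 and 97.6% in the BMP4 libraries. The summed level of transcripts that begin at the shared upstream start codon thus overlapped between the groups (ratio of the means 0.889). With this spread, a kept level cannot be told from a modest change. Nearly all of the summed level sat on 1 end in each group.

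The remaining Aebp2 transcripts varied much less. Aebp2-001 was at 6.32, 5.32 and 5.72 FPKM untreated and 5.28, 5.51 and 6.45 with BMP4. Aebp2-004 was at 1.63, 1.77 and 1.78 FPKM untreated and 1.84, 1.60 and 1.58 with BMP4, and Aebp2-005 at 1.06, 1.08 and 1.14 and at 1.14, 1.21 and 0.955. The groups overlapped for these 3 transcripts, whose sum was 8.61 ± 0.421 FPKM untreated and 8.53 ± 0.401 with BMP4 (SD, n = 3). Aebp2-008 was at 0.690, 0.995 and 0.561 FPKM untreated and 1.30, 1.59 and 1.35 with BMP4, where every BMP4 library lay above every untreated one. Grouped by their ends, the transcripts that read on past the donor at 140650782 (Aebp2-001 and Aebp2-002) summed to 6.06 ± 0.481 FPKM untreated and 14.9 ± 0.218 with BMP4, and the 4 that splice from it to 13.8 ± 2.63 and 4.37 ± 0.265.

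**Figure D2:**
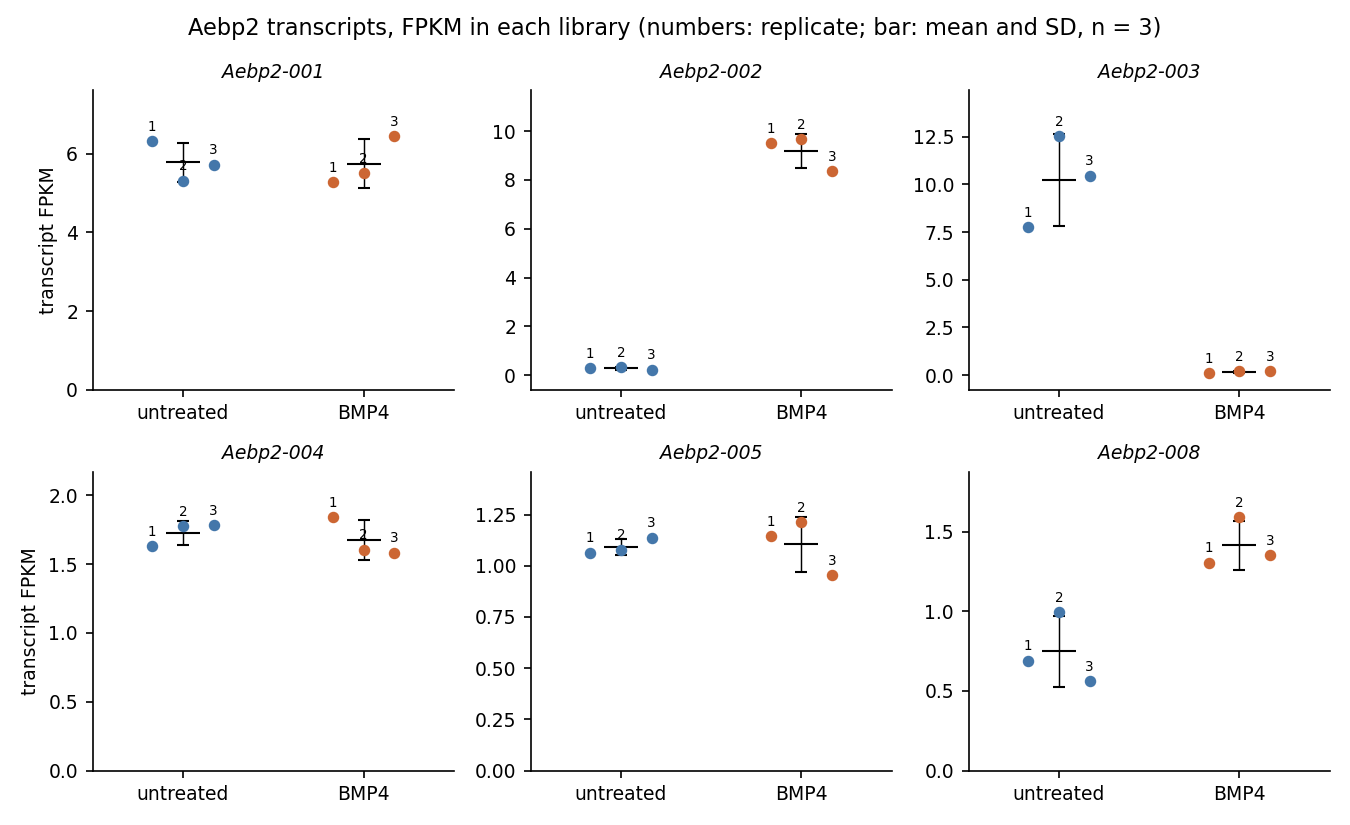
FPKM of each Aebp2 transcript in the 3 untreated (blue) and 3 BMP4 (orange) libraries; numbers are replicates, bars are mean and SD. Aebp2-002 lies at 0.221 to 0.336 FPKM untreated and 8.36 to 9.66 with BMP4, and Aebp2-003 at 7.74 to 12.5 and 0.101 to 0.213, while Aebp2-001, Aebp2-004 and Aebp2-005 overlap between the groups.

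How firmly each value is tied to reads of its own differs between the pair. Aebp2-003 has 1082 bases and 1 splice junction found in no other listed Aebp2 transcript, all in its last exon and the intron before it. Aebp2-002 has 190 such bases, at its 5′ end, and 0 such junctions: it joins the 5′ exons of Aebp2-003 to a last exon of which 0 bases lie outside Aebp2-001. Its level therefore rests largely on how the authors' quantification divided reads that other transcripts also hold. All 6 Aebp2 transcripts had a value above 0 in every library.

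As a share of the summed FPKM of the 6 transcripts, Aebp2-002 went from 1.39 ± 0.246% to 47.5 ± 2.88% and Aebp2-003 from 51.1 ± 6.72% to 0.889 ± 0.316% (SD, n = 3). Weighted by transcript length, as a share of fragments, they went from 1.52 ± 0.275% to 45.3 ± 3.80% and from 38.7 ± 7.12% to 0.583 ± 0.203%. Among 12885 transcripts of 5338 genes, the difference in share ranked 98th in size for Aebp2-003 and 149th for Aebp2-002. In 62 of these genes one transcript gained and another lost at least 45 points, and in 8 of them the SD of both shares was under 10 points in both groups: Aebp2, Cfb, Fes, Ipmk, Kif14, Lgals9, Pth1r and Zfp74. Both limits were chosen after the values of Aebp2 were seen.

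At the level of the gene, Aebp2 was at 6.59, 7.33 and 6.97 FPKM untreated and 7.57, 7.82 and 7.81 with BMP4, so the groups did not overlap but the ratio of the means was 1.11. The sum over transcripts did not follow it, at 19.9 ± 2.16 FPKM untreated and 19.3 ± 0.456 with BMP4. The gene value equals the transcript values weighted by length and spread over the 9851 exonic bases of the gene (98.6 to 99.2% of it was recovered in this way), and Aebp2-002 (3727 bases) weighs more in it than Aebp2-003 (2575 bases). The 3 genes whose log2(FPKM + 1) went most like that of Aebp2 over the 6 samples, of 10931 others, were Dse (Pearson r = 0.992), Pknox1 (r = 0.991) and Nlgn2 (r = 0.991); the samples fall into 2 treatment groups, and these values are a description.

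Among the enzymes, Ezh1 was higher with BMP4 and Ezh2 differed little. Of all 10932 genes tested, 27.9% passed a limma adjusted p of 0.05, 13.6% being higher and 14.3% lower with BMP4. Of the 9 PRC2 genes other than Aebp2, 1 passed, Ezh1, and it was higher; 0 were lower past the threshold, with 2 higher and 2 lower at an unadjusted p under 0.05 by limma. The median log2 difference of the 9 was 0.07, against -0.0013 for all genes tested. The groups did not overlap for 5 of the 9, 3 higher and 2 lower with BMP4, where 45.5% of all genes tested did not overlap.

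Ezh1 (chromosome 11, 101191115 to 101226463, minus strand), which encodes the methyltransferase known from non-dividing cells, was at 6.22, 6.23 and 6.31 FPKM untreated and 8.03, 8.61 and 7.58 with BMP4. Every BMP4 library lay above the narrow range of the untreated ones. The log2 difference was 0.32 (SE 0.06, limma adjusted p = 0.00899), a 1.29-fold ratio of the means, and with 1 library left out or another setting the limma adjusted p stayed between 0.00767 and 0.0404. Ezh2 (chromosome 6, 47530139 to 47595341, minus strand), the methyltransferase known from dividing cells, was at 9.48, 9.08 and 9.13 FPKM untreated and 9.91, 9.73 and 9.50 with BMP4. The groups stood just apart for Ezh2, and its log2 difference of 0.07 (SE 0.05) did not pass (limma adjusted p = 0.379). The 3 genes most like Ezh2 over the 6 samples were Tyro3 (r = 0.994), Rassf5 (r = 0.989) and Xkr8 (r = 0.989), again as a description.

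**Figure D3:**
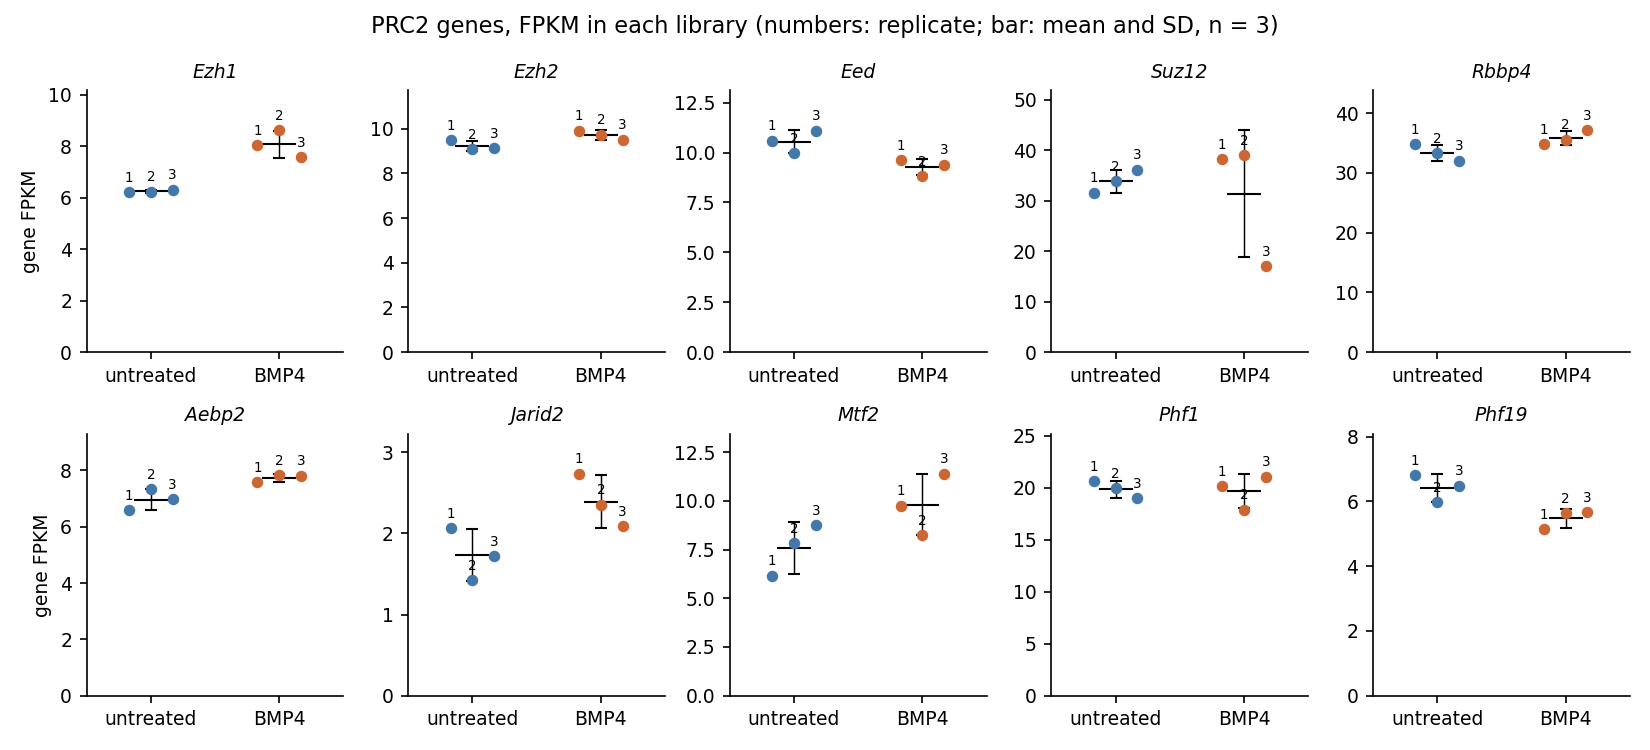
Gene FPKM of the 10 PRC2 genes in each of the 3 untreated (blue) and 3 BMP4 (orange) libraries; numbers are replicates, bars are mean and SD, and each vertical axis has its own range. Ezh1 is at 6.22 to 6.31 FPKM untreated and 7.58 to 8.61 with BMP4, and Suz12 is at 17.0 FPKM in BMP4 replicate 3 against 31.6 to 39.0 in the other libraries.

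Among the partners of the enzyme, Eed (chromosome 7, 89954654 to 89980983, minus strand), the reader of the mark, was at 10.6, 9.98 and 11.1 FPKM untreated and 9.61, 8.81 and 9.40 with BMP4. All BMP4 libraries lay below all untreated ones, but the log2 difference of -0.17 (SE 0.06) did not pass (limma adjusted p = 0.0856). Rbbp4 (chromosome 4, 129307100 to 129335370, minus strand), the histone-binding subunit that other chromatin complexes also use, was at 34.8, 33.3 and 32.1 FPKM untreated and 34.8, 35.6 and 37.1 with BMP4. Its groups just overlapped, and the log2 difference of 0.10 (SE 0.05) did not pass (limma adjusted p = 0.185), though it did after libraries were scaled to equal sums (limma adjusted p = 0.0301).

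Suz12 (chromosome 11, 79993106 to 80034123, plus strand), the scaffold, was low in 1 library only. It was at 31.6, 33.9 and 36.1 FPKM untreated and 38.2, 39.0 and 17.0 with BMP4, so BMP4 replicate 3 stood far below the other 5 libraries. The log2 difference was -0.19 (SE 0.29, limma adjusted p = 0.656), and without BMP4 replicate 3 it was 0.19 (limma adjusted p = 0.0982), on the other side of 0. The neighbouring genes Utp6, Crlf3 and Atad5 were not low in that library, at 19.3, 7.78 and 9.86 FPKM against 19.7, 6.99 and 11.8 in BMP4 replicate 1. Suz12 was 1 of 15 genes, among 5158 with a mean of at least 10 FPKM, that were in BMP4 replicate 3 below 50% of their level in both other BMP4 libraries; the other libraries had 6 to 16 such genes. An annotated antisense gene overlaps Suz12. The libraries are strand-specific, but the use of strand in the quantification is not given, so whether reads of the pair were separated is unknown.

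Of the genes for accessory subunits, 0 passed by limma. Jarid2 (chromosome 13, 44729474 to 44921643, plus strand), which encodes the partner of AEBP2, was the lowest of the 10 genes, at 2.07, 1.43 and 1.72 FPKM untreated and 2.73, 2.36 and 2.09 with BMP4. The groups were separated by a narrow gap, and the log2 difference of 0.31 (SE 0.11, limma adjusted p = 0.0780) passed, of the settings tried, only without untreated replicate 1 (0.40, limma adjusted p = 0.0420). Mtf2 (chromosome 5, 108065674 to 108109004, plus strand), a Polycomb-like gene, was at 6.16, 7.84 and 8.77 FPKM untreated and 9.75, 8.25 and 11.4 with BMP4, with overlap (0.33, SE 0.14, limma adjusted p = 0.131). Phf19 (chromosome 2, 34893757 to 34914026, minus strand), another Polycomb-like gene, was at 6.82, 5.97 and 6.48 FPKM untreated and 5.15, 5.63 and 5.66 with BMP4. Its BMP4 libraries were the lower ones, without passing (-0.20, SE 0.07, limma adjusted p = 0.0805). Phf1 (chromosome 17, 26933127 to 26937890, plus strand), the most abundant Polycomb-like gene here, was at 20.6, 19.9 and 19.0 FPKM untreated and 20.1, 17.9 and 21.04 with BMP4 (-0.01, SE 0.07, limma adjusted p = 0.906).

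In order of untreated gene FPKM, Suz12 (33.9 ± 2.28, SD, n = 3) and Rbbp4 (33.4 ± 1.37) did not differ beyond their spread, and Phf1 (19.8 ± 0.828) followed. Eed (10.6 ± 0.557) and Ezh2 (9.23 ± 0.216) came next, with ranges that did not overlap. They were followed by Mtf2 (7.59 ± 1.32), Aebp2 (6.96 ± 0.367), Phf19 (6.42 ± 0.428) and Ezh1 (6.25 ± 0.0521), each of which overlapped its neighbour in this order, and Jarid2 (1.74 ± 0.320) was last. These gene values are per base of all exons of the gene, so a gene with long exons that few of its transcripts use is set low: Rbbp4-001, the one listed Rbbp4 transcript, was at 68.0, 63.9 and 61.7 FPKM untreated and 66.5, 68.5 and 71.4 with BMP4, well above the gene value.

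Among the transcripts of the 9 genes other than Aebp2, 18 of 22 had a mean of at least 1 FPKM and were tested. Of all 17213 transcripts tested, 8.55% passed, 4.03% higher and 4.53% lower with BMP4. Of the 18, 1 passed, Ezh1-002, which was higher; 0 were lower past the threshold by limma, and 0 were lower at an unadjusted p under 0.05. The groups did not overlap for 3 of the 18 (Ezh1-002, Ezh1-201 and Phf19-001), against 30.6% of all transcripts tested.

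Ezh1-002 ends before the last exons of the gene's main transcript. It has 15 exons and 579 codons, where Ezh1-201, the main transcript, has 21 exons and 750 codons; 12 exons are common to both, and 6 exons of Ezh1-201 lie beyond the end of Ezh1-002. The catalytic SET domain of EZH1 lies at the end of the protein that the longer transcript encodes. The sequences at the point of divergence are shown because the capitals mark where the shorter coding sequence departs and ends: the 30 bases before it are common and in lower case, followed in capitals by the 80 bases of Ezh1-002 to its stop (chr11:101199178-101199287, minus strand, GRCm38) or by the first 30 bases of the next exon of Ezh1-201 (reaching 101195668, across an intron).
Ezh1-002: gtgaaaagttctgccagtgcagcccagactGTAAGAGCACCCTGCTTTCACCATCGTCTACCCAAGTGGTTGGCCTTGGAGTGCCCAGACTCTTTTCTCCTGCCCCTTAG
Ezh1-201: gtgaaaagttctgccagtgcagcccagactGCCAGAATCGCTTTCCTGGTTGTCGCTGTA

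Ezh1-002 was at 1.67, 1.70 and 1.26 FPKM untreated and 3.50, 3.38 and 2.90 with BMP4. All BMP4 libraries were well above the untreated ones, with a 2.12-fold ratio of the means and a log2 difference of 0.75 (SE 0.14, limma adjusted p = 0.0336). The call was lost when any 1 of the 6 libraries was left out (limma adjusted p of 0.0727 to 0.128), with differences of 0.67 to 0.81. The 80 bases of Ezh1-002 in capitals above follow the shared part with no intron, where Ezh1-201 is spliced. Unspliced Ezh1 RNA would hold them too, and its part in the Ezh1-002 values was not tested. Ezh1-201 was at 9.28, 5.98 and 9.76 FPKM untreated and 10.8, 11.5 and 10.5 with BMP4, which did not pass (0.38, SE 0.18, limma adjusted p = 0.297). The low untreated replicate 2 of Ezh1-201 was the library in which Ezh1-001, whose coding sequence is 9 bases shorter, stood at 3.28 FPKM; Ezh1-001 was at 0.0662 and 0.000547 FPKM in the other untreated libraries and at 0.0259, 0.311 and 0.00110 with BMP4. The share of Ezh1-002 in its gene was 14.0 ± 2.23% untreated and 22.9 ± 1.48% with BMP4 (SD, n = 3), a difference of 8.82 points (SE 2.73, limma adjusted p = 0.723).

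For transcript shares in the whole table, 0.295% of 12885 passed. Of the 19 tested shares of the 9 genes, 0 passed by limma and 1, that of Ezh1-002, was at an unadjusted p under 0.05. Of the 22 transcripts, 5 were listed at 0 in at least 1 library and above 0 in others; Ezh2-004, Mtf2-006 and Eed-003 were so in both groups, and Jarid2-002 and Jarid2-003 in the untreated group. Ezh2-004 was at 3.09, 0 and 2.07 FPKM untreated and 0, 0 and 2.95 with BMP4. Mtf2-006 was at 0, 0 and 4.48 FPKM untreated and 0, 2.68 and 0 with BMP4, and Eed-003 at 2.00, 2.82 and 0 and at 3.03, 0 and 0. None of these patterns followed the treatment. Jarid2-002 was at 0, 0.0131 and 0 FPKM untreated and 3.69, 0.0171 and 1.41 with BMP4, so the groups did not overlap, but BMP4 replicate 2 lay just above the highest untreated library. Its sister Jarid2-003, which has a coding sequence of the same length, was at 0, 1.35 and 1.88 FPKM and at 0.846, 2.48 and 0.648. The 3 listed Jarid2 transcripts accounted for 26.3% of the Jarid2 gene value in untreated replicate 1, 51.4% in BMP4 replicate 2 and 81.6 to 98.2% in the other libraries.

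Among the main transcripts of the other subunits, those of Suz12 traded places between the untreated libraries. Suz12-001 was at 6.64, 28.1 and 10.8 FPKM untreated and 11.6, 18.4 and 8.40 with BMP4, and Suz12-201, whose coding sequence is 69 bases shorter, at 29.5, 10.3 and 30.3 and at 31.9, 26.1 and 10.8. Untreated replicate 2 was high for the first and low for the second, while the sum of both was 36.1, 38.4 and 41.1 FPKM untreated and 43.5, 44.4 and 19.2 with BMP4. Ezh2-010, the highest Ezh2 transcript, was at 11.4, 12.6 and 8.65 FPKM untreated and 8.93, 10.2 and 7.02 with BMP4 (limma adjusted p = 0.425). Ezh2-003 was at 3.44, 4.0 and 3.20 FPKM and at 5.96, 6.44 and 3.40 (limma adjusted p = 0.346), and Ezh2-001 at 2.94, 3.80 and 4.40 and at 5.20, 3.35 and 4.87. All of them overlapped between the groups. Mtf2-001 stayed within 5.84 to 6.34 FPKM in all 6 libraries, while the Mtf2 gene value ranged more widely. The 2 listed Mtf2 transcripts accounted for 39.4 to 69.0% of the gene value, and no transcript value used here accounts for the rest. Listed transcripts also fell short of the gene value for Ezh2 (72.8 to 80.3%), Eed (75.6 to 83.7%) and Phf19 (75.5 to 85.8%). Shares are therefore of the listed transcripts only.

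The transcripts not yet named were Eed-001, at 12.6 to 16.6 FPKM untreated and 11.4 to 13.4 with BMP4, and Eed-007, at 1.56 to 3.03 and 1.66 to 2.29. Phf19-001 was at 6.76, 6.48 and 7.14 FPKM untreated and 5.61, 6.42 and 6.09 with BMP4, just lower with BMP4 and not past the threshold (limma adjusted p = 0.398), and Phf19-005 at 0.784 to 1.80 and 0.323 to 2.09. Jarid2-001 was at 0.881 to 1.30 FPKM untreated and 0.237 to 1.17 with BMP4, and Ezh2-002 at 0.364 to 0.800 and 0.493 to 0.717. Phf1-201 is the one listed Phf1 transcript and carries the values of its gene.

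**Figure D4:**
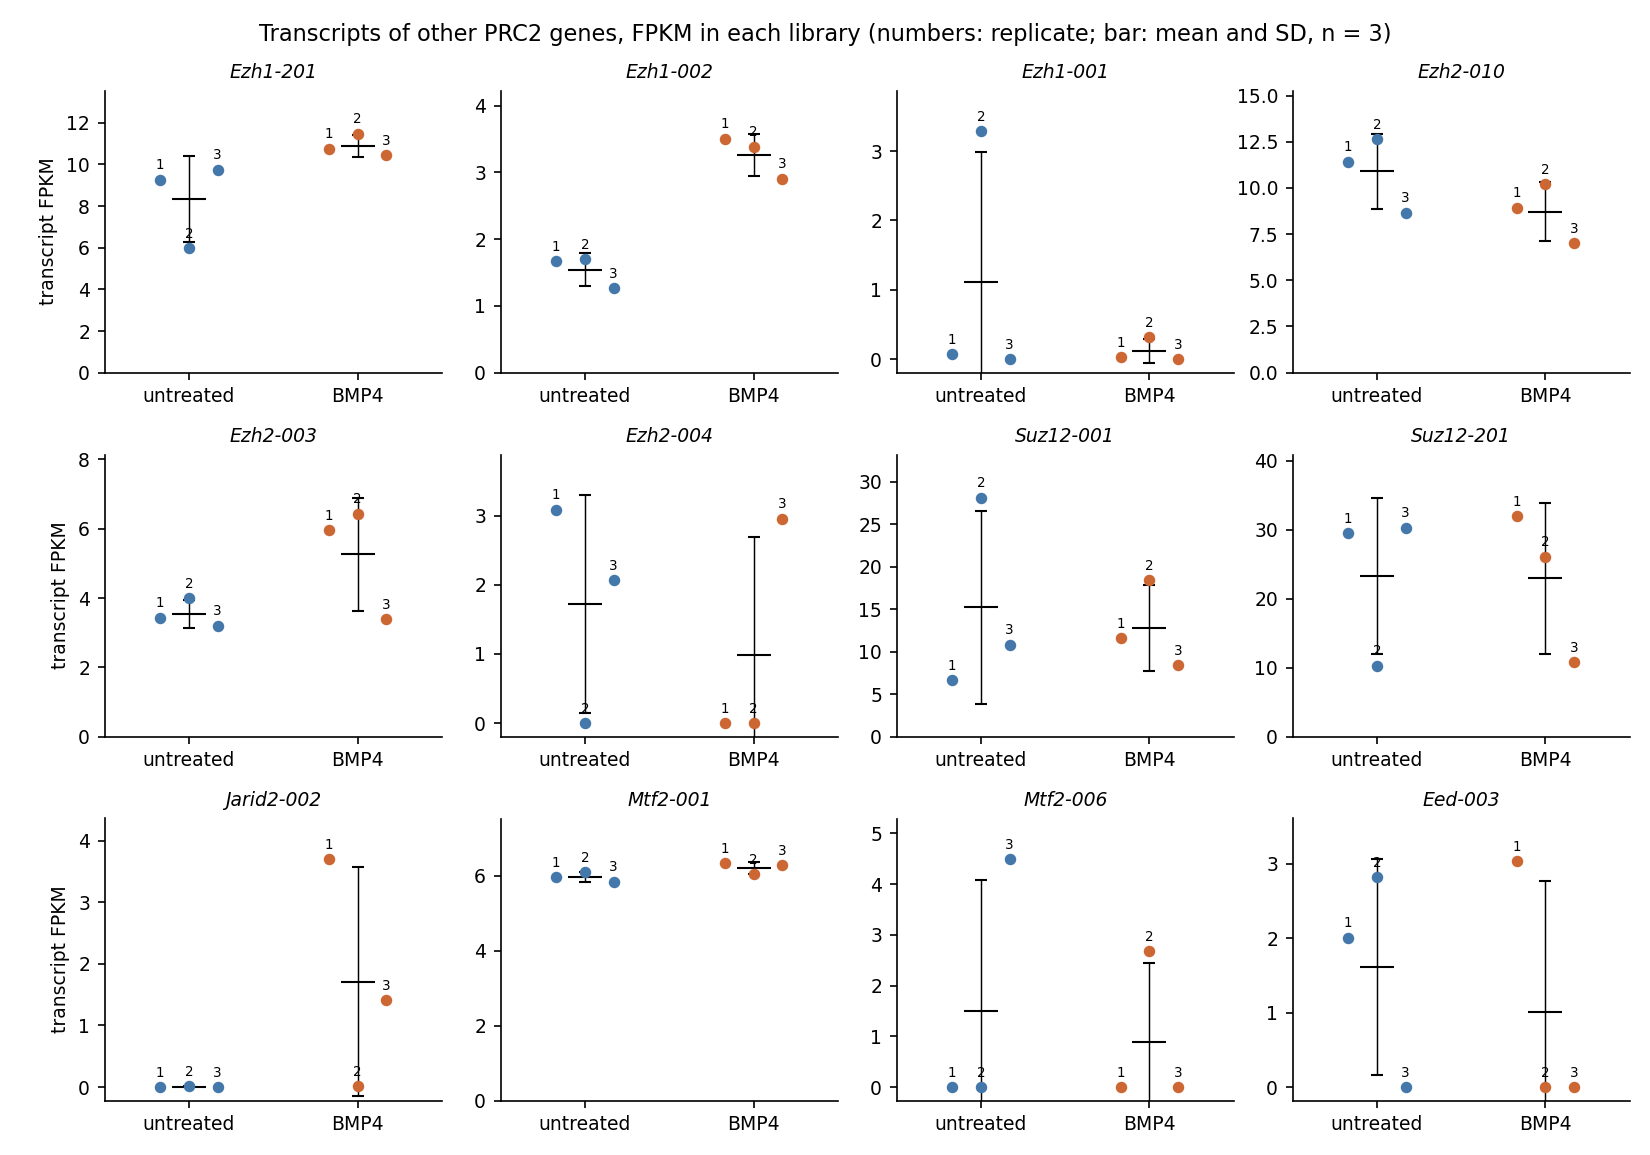
FPKM of 12 transcripts of other PRC2 genes in each untreated (blue) and BMP4 (orange) library; numbers are replicates, bars are mean and SD (cut off below 0 where the SD exceeds the mean), and each vertical axis has its own range. Ezh1-002 is separated between the groups, Ezh2-004, Mtf2-006 and Eed-003 are at 0 in some libraries of both groups, and Suz12-001 is high and Suz12-201 low in untreated replicate 2.

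Other genes of the Polycomb system were read as lists. Of the other PRC2 components, 3 of 5 had a value, Rbbp7, Lcor and Lcorl, and 0 passed by limma (0 also at an unadjusted p under 0.05; limma adjusted p of 0.488 to 0.764). Among 11 tested genes that remove the H3K27 methyl mark or belong to PR-DUB, the complex that removes ubiquitin from histone H2A, 2 were higher and 0 lower (0 lower also at an unadjusted p under 0.05), or 18.2% against 27.9% of all genes tested, with a median log2 difference of 0.11. Kdm6b, an H3K27 demethylase, rose from 9.75 ± 0.475 to 15.5 ± 0.650 FPKM (SD, n = 3; log2 difference 0.62, limma adjusted p = 0.000323), and Asxl1, the PR-DUB cofactor, from 14.1 ± 0.884 to 17.2 ± 1.11 (0.27, limma adjusted p = 0.0269). The other demethylase, Kdm6a, was at 3.14 ± 0.413 and 3.70 ± 0.266 FPKM (limma adjusted p = 0.176), and Foxk2, a DNA-binding partner of PR-DUB, at 29.6 ± 0.573 and 32.0 ± 1.33 (limma adjusted p = 0.145).

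Of 23 tested genes of PRC1, the complex that ubiquitinates histone H2A and compacts chromatin, 4 were higher and 5 lower with BMP4, or 39.1% against 27.9% of all genes tested (13.6% higher and 14.3% lower), with a median log2 difference of 0.13. Cbx2, a chromodomain reader of the H3K27 mark, rose from 8.03 ± 0.212 to 12.5 ± 0.209 FPKM (SD, n = 3; log2 difference 0.58, limma adjusted p = 0.000221). Rybp, a subunit of the forms without a CBX protein, fell from 31.7 ± 0.972 to 23.2 ± 1.41 FPKM (limma adjusted p = 0.00143), Pcgf5 from 18.3 ± 0.991 to 12.7 ± 1.47 (limma adjusted p = 0.00564) and L3mbtl2 from 4.72 ± 0.224 to 3.52 ± 0.106 (limma adjusted p = 0.00746). The remaining genes that passed, named after their values were seen, were Bcor, Yaf2 and Phc2, higher, and Cbx6 and Ring1, lower.

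Of 34 tested genes known as Polycomb targets in embryonic stem cells, mostly Hox genes, 11 were higher and 5 lower, or 47.1% against 27.9% of all genes tested (13.6% higher and 14.3% lower), with a median log2 difference of 0.16; 22 of the 58 in the list were not in the table. Hoxc13 rose from 10.9 ± 1.16 to 33.2 ± 1.37 FPKM (SD, n = 3; log2 difference 1.52, limma adjusted p = 1.78e-05). Cdkn1c, an inhibitor of cyclin-dependent kinases, rose from 9.12 ± 0.424 to 15.0 ± 0.334 FPKM (limma adjusted p = 0.000161), the secreted ligand Wnt5a from 3.51 ± 0.344 to 7.01 ± 0.838 (limma adjusted p = 0.000897) and Hoxa3 from 1.04 ± 0.182 to 2.12 ± 0.0492 (limma adjusted p = 0.00151). The 5 that fell were Cdkn2a, from 271 ± 13.3 to 217 ± 10.2 FPKM (limma adjusted p = 0.00627), Cdkn2b, Hoxa7, Hoxb4 and Hoxc8, named here after their values were seen. Dlx5 and Hoxc12, also in the list, had a mean under 1 FPKM and were not tested. Dlx5 was at 0.102 ± 0.0983 FPKM untreated and 1.38 ± 0.00301 with BMP4 (SD, n = 3). In each listed gene the higher group mean was at least 0.502 FPKM, a level that Dlx5 reached only with BMP4. Hoxc12 was at 0.781 ± 0.290 FPKM untreated and 1.20 ± 0.281 with BMP4, with overlap. No histone methylation was measured in these samples.

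Of 21 genes of the cell cycle and DNA replication, which are read here because Ezh2 is known to be higher in dividing cells, 5 were higher and 2 lower, or 33.3%, near the 27.9% of all genes tested, with a median log2 difference of -0.01. Mcm4, part of the replicative helicase, rose from 90.8 ± 1.68 to 123 ± 1.19 FPKM (SD, n = 3; limma adjusted p = 0.000228) and Rrm2, a subunit of ribonucleotide reductase, from 28.8 ± 1.60 to 35.2 ± 1.25 (limma adjusted p = 0.00922). Tyms, thymidylate synthase, fell from 14.6 ± 0.587 to 11.8 ± 0.357 FPKM (limma adjusted p = 0.00751) and E2f2, a transcription factor of the cycle, from 2.53 ± 0.283 to 1.55 ± 0.201 (limma adjusted p = 0.00900).

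**Figure D5:**
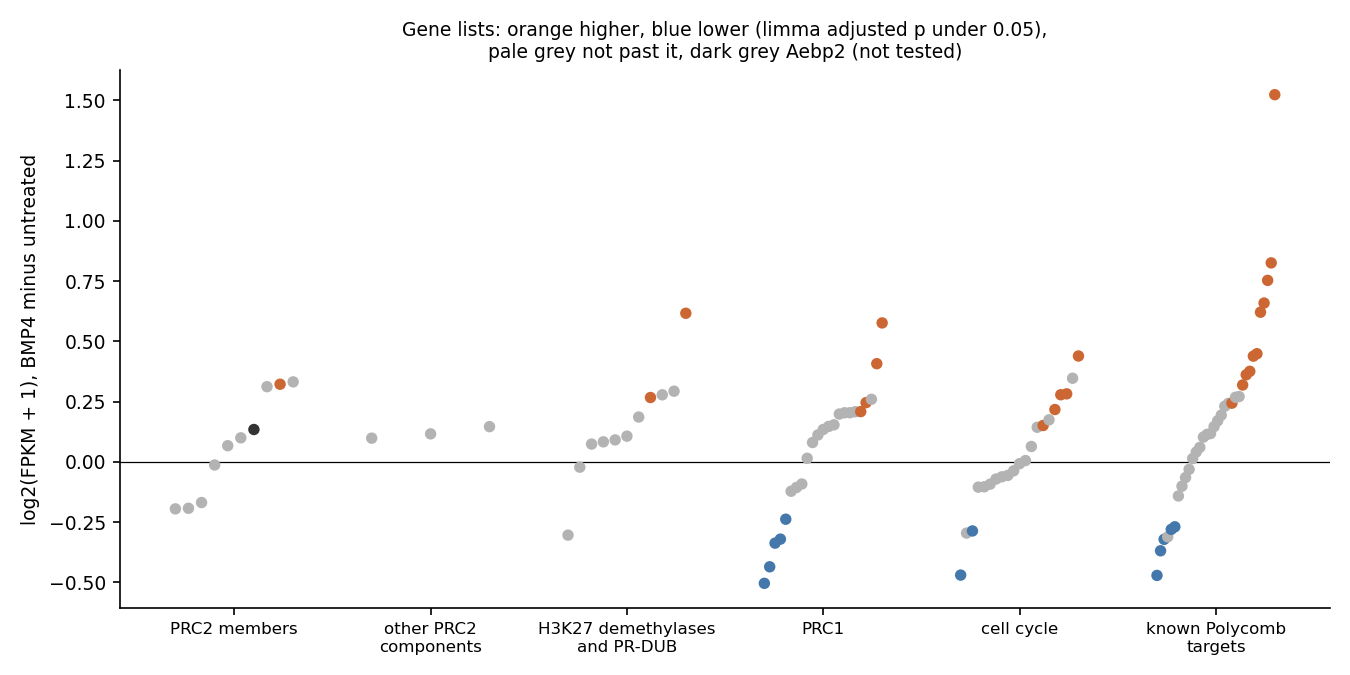
Differences in log2(FPKM + 1), BMP4 minus untreated (vertical axis), of the tested genes of 6 lists, each point 1 gene, sorted within its list; orange points were higher and blue points lower at a limma adjusted p under 0.05, pale grey points did not pass and the dark grey point is Aebp2, not tested. The PRC2 genes lie between -0.20 and 0.33 with 1 past the threshold, and Hoxc13 stands highest among the known targets at 1.52.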

How the data were processed

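The authors deposited FPKM of genes and of transcripts, per the file headers, for 6 polyadenylated RNA libraries, 3 per group; a single emptied line (1 in each table) was ignored. HISAT2, StringTie, cutadapt and FastQC on GRCm38 are named in the submitters' processing notes; versions, annotation release and strand settings: not given in the sources used here. In each listed gene the higher group mean was at least 0.502 FPKM, and in each listed transcript 0.5, so features low in both groups are outside the tables. Depth could not be recovered from the FPKM the authors deposited: at best 19.0% to 24.0% of the 100 lowest values lay within 0.05 of a whole step.

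From these values log2(FPKM + 1) was tested with limma 3.58.1 in R 4.3.3 (two-sided moderated test, variance trend) for 10932 genes and 17213 transcripts whose mean reached 1 FPKM, with Benjamini-Hochberg adjustment over each whole table and a threshold of 0.05. Shares, in percent of the summed FPKM of a gene's listed transcripts, were tested likewise where a gene had at least 2 listed transcripts and a sum of at least 1 FPKM and the share averaged at least 5%. The test was checked on simulated data. Other pseudocounts, scalings, filters, a replicate block and the omission of each library were tried. Exons, coding parts and sequences come from the GENCODE M21 annotation and transcripts (GRCm38); 27 of the 28 transcripts matched with their version. The genes and lists were chosen with earlier results of these data known. All 10 genes and their transcripts are named, with the first 4 tested genes of each list by adjusted p and the 3 genes most correlated with Aebp2 and with Ezh2.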

Additional observations from a re-analysis of the deposited data

How the results depend on the processing

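Of the 9 PRC2 genes other than Aebp2, 1 was higher with BMP4, and 2 were after scaling to equal sums (Ezh1 and Rbbp4); with a replicate left out the number was 1 to 2, the second being Jarid2 without untreated replicate 1. The 1 PRC2 transcript called higher, Ezh1-002, became 0 with a mean of at least 5 FPKM, which leaves it untested, and 0 whichever replicate was left out. Over all transcripts, 693 were higher and 779 lower, and 349 to 541 and 403 to 534 with a replicate left out. The 38 shares called became 7 with a gene sum of at least 5 FPKM, which tests fewer, and 0 to 25 with a replicate left out. The cause was not tested where none is given. The replicate numbers were not taken as a pairing: same-numbered samples had deviations correlated at -0.149, 0.050 and -0.221. With so few samples per group, these values cannot decide whether a pairing exists. With the replicate number as a block, 168 transcripts were higher and 173 lower, 0 PRC2 transcripts and 0 shares were called, and Ezh1 remained called among the genes. Aebp2 was selected on the differences of Aebp2-002 and Aebp2-003, so their values under other settings are a description and lend no support. On the log2 scale Aebp2-002 ranged from 2.96 to 4.63 over 12 settings. Aebp2-003 ranged from -5.25 to -3.10 over 13, the far ends of both being a pseudocount of 0.1. With a mean of at least 5 FPKM, Aebp2-002 was left out. Among 46 single tested values, 21 had a difference that turned sign under at least 1 setting, without being past the threshold on either side. Read counts were not used here, and FPKM without depth shows no limit of detection.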
